A study of Mus musculus with 4 samples.

Results

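The genes described here are 10 whose products are known to switch mouse embryonic stem cells into or out of the two-cell-like state, taken by name from a table of 22138 genes: the activators Dux, Dppa2 and Dppa4, and the repressors Chaf1a, Chaf1b, Kdm1a, Zmym2, Smchd1, Rif1 and Ncl. All 10 names were found in the table. RNA was sequenced from TT2, a feeder-free embryonic stem cell line of C57BL/6xCBA strain recorded as female and grown in serum with LIF, a cytokine that keeps such cells undifferentiated. One group received siRNA against Hnrnpk (n = 2) and the other control siRNA (n = 2); both groups were transfected at 100 nM and again at 50 nM after 24 hours, and were collected about 72 hours after the second transfection. The product of Hnrnpk, hnRNP K, binds single-stranded nucleic acids, and the title of the series links it to silencing by the histone methyltransferase SETDB1. The design calls the replicates biological; a single cell line, and an siRNA with no sequence in the sources used here, limit what the groups represent.

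A small share of embryonic stem cells in culture passes through a state that resembles the mouse embryo after its first cleavage, with transcripts of that stage such as Zscan4. Dux, a double homeobox transcription factor encoded in a repeat array, binds and activates many of those genes, and DPPA2 and DPPA4, a pair of related SAP-domain proteins that bind chromatin together, act upstream of Dux. Several chromatin proteins hold the state back: the histone chaperone CAF-1, whose subunits CHAF1A and CHAF1B place new histones behind the replication fork; the histone demethylase LSD1 (Kdm1a) and its binding partner ZMYM2; SMCHD1, a structural-maintenance protein that silences repeat arrays and the inactive X chromosome; RIF1, which sets replication timing; and nucleolin (Ncl), an abundant nucleolar protein.

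By the tests described in the next paragraph, Dppa2 and Dppa4 rose in the Hnrnpk siRNA group, called the knockdown below, and 4 of the 7 repressors fell. By the same tests 32.2% of all genes tested rose and 35.0% fell. The level of Dppa2 went from 30.6 ± 2.89 to 61.9 ± 0.816 RPKM (SD, n = 2 each), that of Smchd1 from 21.4 ± 0.576 to 10.2 ± 0.935 RPKM, and that of Chaf1b from 30.5 ± 3.37 to 18.3 ± 0.113 RPKM (SD, n = 2 each). RPKM is the number of mapped reads scaled to transcript length and library size. Dux stayed very low, with a mean of 0.169 ± 0.0284 RPKM after knockdown against 0.0151 ± 0.00657 RPKM after control siRNA (SD, n = 2 each). Rif1 and Ncl overlapped between the groups.

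The tests used limma on log2(RPKM + 0.5) over 12486 genes, those averaging 0.5 RPKM or more, and calls were made under 0.05 after Benjamini-Hochberg adjustment. Of the 10 genes, 9 passed that filter and Dux did not. Limma called 2 of the 9 higher (Dppa2, Dppa4) and 4 lower (Chaf1b, Kdm1a, Zmym2, Smchd1), and 3 were not called. The background is high in this comparison: 67.2% of all genes tested were called, 32.2% higher and 35.0% lower, so 6 calls among 9 genes is a share near that background. The 2 groups lay apart for 7 of the 9 genes, against 84.7% of all genes tested. The median log2 change was -0.14 over the 9 genes and -0.015 over all genes tested. The smallest p of an exact permutation test with 2 libraries per group is 0.333, so each call rests on the variance limma pools across genes.

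Hnrnpk itself stood at 236 and 226 RPKM in the controls and at 68.0 and 70.5 RPKM in the knockdown libraries, in the direction of the labels. Depth relative to control replicate 1, read from the steps between low values, ranged from 0.882 to 0.982 in the other libraries, with both knockdown libraries the shallower. Embryonic stem cell markers were high everywhere, the 9 of them summing to 3880 to 4040 RPKM in the controls and 4650 to 4980 RPKM after knockdown. That sum did not follow most of its genes: 2 were called higher, among them the abundant Dppa5a (1320 and 1276 RPKM, then 2164 and 2451 RPKM), 3 were called lower, and the median log2 change was -0.15. Markers of other cell types differed between the groups: the 6 primitive endoderm markers summed to 5.17 to 5.20 RPKM after control siRNA and 30.3 to 30.9 RPKM after knockdown, and the 7 trophectoderm markers to 68.6 to 71.1 and 91.3 to 96.6 RPKM. The 7 fibroblast markers, which would show feeder cells, summed to 8.02 to 9.46 and 4.08 to 4.32 RPKM, the 4 mesoderm markers to 3.65 to 3.85 and 6.78 to 7.30 RPKM, and the 2 neural markers found to 4.25 to 4.87 and 2.22 to 2.36 RPKM. The mesoderm, trophectoderm and fibroblast sums hid opposite changes. Both knockdown values exceeded both control values for 2 mesoderm markers, Eomes (mean 1.315 to 5.156 RPKM) and T. They lay below for the other 2, Mixl1 and Mesp1. Among trophectoderm markers 5 lay above and 2 below, Tfap2c (mean 37.9 to 28.4 RPKM) and Elf5. Among fibroblast markers 3 lay below, including the most abundant, Thy1 (mean 6.05 to 2.25 RPKM) and Col1a1 (mean 2.57 to 1.79 RPKM). Only 1 lay above, Lum (mean 0.0118 to 0.0646 RPKM), and the rest overlapped. Over all rows above 0, 39.0% lay above and 37.5% below. No marker analysed was at 0 in any library. The part of these other cell types in the results below was not tested.

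Dux comes from near-identical repeats, and the row named Dux carries the identifier ENSMUSG00000058537. GENCODE M21 (GRCm38) names that identifier AW822073, a protein-coding gene at chromosome 10, 58222972 to 58224930, minus strand. The copy that M21 names Duxf3 (ENSMUSG00000075046, chromosome 10, 58229979 to 58232675, minus strand) appears in the table as Gm10807. The protein-coding transcripts of the 2 copies aligned over 1959 bases without gaps, at 98.1% identity with 37 mismatches. The first 150 aligned bases of each are shown to let the likeness of the copies be seen; they are coding sequence in GENCODE M21, start at base 1 of the AW822073 transcript and at base 67 of the Duxf3 transcript, and hold 1 mismatch, in capitals.
AW822073, listed as Dux: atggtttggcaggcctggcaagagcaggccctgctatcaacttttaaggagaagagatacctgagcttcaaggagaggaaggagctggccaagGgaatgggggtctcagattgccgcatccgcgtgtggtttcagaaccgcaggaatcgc
Duxf3, listed as Gm10807: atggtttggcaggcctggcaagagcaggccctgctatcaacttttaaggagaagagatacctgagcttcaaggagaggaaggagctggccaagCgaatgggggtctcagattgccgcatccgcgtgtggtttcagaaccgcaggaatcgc

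The row named Dux was at 0.0104 and 0.0197 RPKM in the controls and at 0.189 and 0.149 RPKM in the knockdown libraries. Both knockdown values exceeded both control values, which was also true of 39.0% of the 18814 rows above 0 in any library. These values were whole multiples of a step scaled by relative depth, in the proportion of 7 to 13 to 113 to 88 units with a deviation of at most 0.001 units (tolerance 0.02). If each unit was an independent read or read pair, the exact 95% Poisson intervals were 2.81 to 14.4 and 6.92 to 22.2 units in the controls, against 93.1 to 136 and 70.6 to 108 units after knockdown. On that reading the depth-scaled level was 11.2 times higher after knockdown (exact 95% interval 7.08 to 18.8), from 20 units against 201. The intervals cover counting error only, and no source used here gives the size of a unit.

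Dux entered the limma fit only when no filter on low values was used. Its log2 change was then 0.38 (SE 0.0351, limma adjusted p = 0.00197), a value compressed by the added 0.5 RPKM. With smaller added values, chosen after seeing the data, the log2 change was 1.22 with 0.1 RPKM (limma adjusted p = 0.000931) and 2.85 with 0.01 RPKM (limma adjusted p = 0.000907).

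The table holds 3 further rows in the same stretch of chromosome 10, chosen by position. Gm10807, the Duxf3 copy, stood at 0.0135 RPKM and was listed at 0 in control replicates 1 and 2, and stood at 0.206 and 0.175 RPKM after knockdown. The row 4933403O03Rik (ENSMUSG00000057216, an unprocessed pseudogene in M21) was at 0.0337 and 0.00739 RPKM and then at 0.103 and 0.183 RPKM. Gm4981 was listed at 0 and at 0.00452 RPKM in the controls and stood at 0.0299 and 0.0101 RPKM after knockdown. In each of these rows both knockdown values exceeded both control values, but most of the rows share sequence and are not independent. At 95% identity or more, 100% of the AW822073 transcript and 96.7% of the Duxf3 transcript matched other genes. Gm4981 had no such match, but it was near the floor. Its 0.0101 RPKM in Hnrnpk siRNA replicate 2 was as low as the row named Dux in control replicate 1 (0.0104 RPKM). The number of units behind the Gm4981 values was not worked out. Because these were bulk libraries, more cells in the two-cell-like state and more RNA per such cell cannot be told apart.

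**Figure D1:**
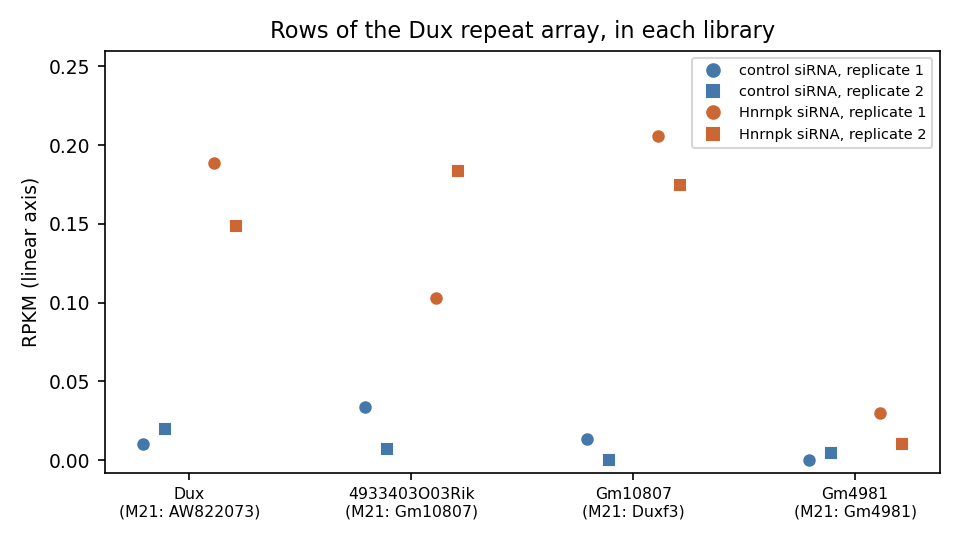
RPKM (linear axis) of the 4 rows of the Dux array in each library, with control libraries in blue and knockdown libraries in orange. The row named Dux lies at 0.0104 and 0.0197 RPKM after control siRNA and at 0.189 and 0.149 RPKM after knockdown, and no control point reaches an Hnrnpk siRNA point of the same row.

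The promoter window of Duxf3 is shown because it is the start of the array copy that RefSeq lists; it spans chr10:58233040-58233339 of GRCm38.p6 on the minus strand, from 250 bases before to 50 bases after the start. RefSeq windows were found for 7 of the 10 genes, counting Duxf3 for Dux. Each was searched on both strands for CCCTCCC (core of the CT element, a sequence hnRNP K is known to bind), TTCCCGCC (an E2F site), CACGTG (E-box), GGGCGG (GC box), CCAAT and GATTNAATC (core of the site reported for mouse DUX, chosen after the sequence had been read). Matches are in capitals, and matches that overlap run together.
Duxf3: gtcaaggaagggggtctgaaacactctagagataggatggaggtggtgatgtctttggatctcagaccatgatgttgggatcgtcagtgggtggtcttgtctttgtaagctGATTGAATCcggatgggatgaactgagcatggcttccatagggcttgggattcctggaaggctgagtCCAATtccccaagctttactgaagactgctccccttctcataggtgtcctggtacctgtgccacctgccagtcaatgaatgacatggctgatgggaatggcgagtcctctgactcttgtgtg
The Duxf3 window held 1 match to GATTNAATC, which 0.268% of all 32851 windows hold, and 1 to CCAAT, which 37.4% hold. Because GATTNAATC was chosen after this sequence had been read, its share does not measure how unusual the match is. The Duxf3 window held no CCCTCCC, which 7211 windows hold. Its GC content of 51.0% was near the median of all windows, 52.7%.

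Dppa2 and Dppa4 are neighbours on chromosome 16, in GRCm38 from 48303908 to 48319723 and from 48283733 to 48294237, with 9671 bases between them. Dppa2 was at 28.6 and 32.7 RPKM in the controls and then at 62.5 and 61.4 RPKM. The groups did not overlap, and the log2 change was 1.01 (SE 0.0741, 95% interval 0.84 to 1.17, limma adjusted p = 3.09e-06). That change was larger than those of 96.1% of all genes tested. Dppa4 was at 87.0 and 87.6 RPKM and then at 99.0 and 103 RPKM. The groups did not overlap here either, but the log2 change was small, 0.21 (SE 0.0613, 95% interval 0.074 to 0.35, limma adjusted p = 0.012). The Dppa4 call was lost with libraries scaled to equal sums of RPKM (0.12, adjusted p = 0.09) and under quantile normalization (0.13, adjusted p = 0.0616). Leaving out Hnrnpk siRNA replicate 2 also ended it (0.18, adjusted p = 0.0709), and the range of adjusted p over the alternatives was from 0.00504 to 0.09.

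The balance within the pair differed between the groups. There were 0.328 and 0.373 RPKM of Dppa2 per RPKM of Dppa4 in the controls and 0.632 and 0.593 after knockdown, a mean of 0.351 ± 0.0316 against 0.613 ± 0.0272 (SD, n = 2 each). Summed, the pair went from 118 ± 3.28 to 163 ± 2.34 RPKM (SD, n = 2 each). The ratio was described and not tested. Part of each level may include reads of other loci: 37.0% of the Dppa2 transcript and 56.9% of the Dppa4 transcript matched other genes at 95% identity or more. The copy of Dppa4 found in the table, Gm5501, was listed at 0.196 to 0.216 RPKM after control siRNA and 0.359 to 0.386 RPKM after knockdown. The next protein-coding gene beyond Dppa2, Morc1, 111514 bases away, fell from 38.4 and 38.5 RPKM to 23.0 and 22.3 RPKM (log2 change -0.75, limma adjusted p = 5.88e-06); MORC1 is a transposon-silencing protein of germ cells.

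By distance over the 4 libraries, after each gene's control mean was subtracted, the genes tested whose pattern lay nearest to Dppa2 included Gtf2h1 (distance 0.0169 on the log2 scale) and Zfyve16 (0.0254). Nearest to Dppa4 were Hprt (0.00995), Ldoc1l (0.0125) and 2900073G15Rik (0.0149). These are among the closest of 12486 genes, over only 4 points.

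**Figure D2:**
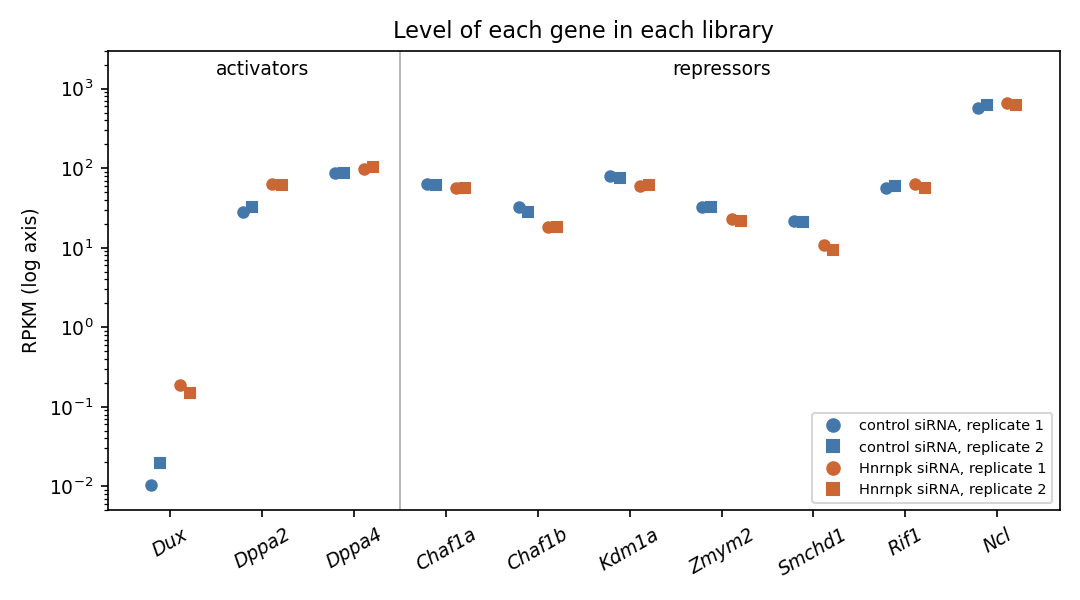
RPKM (log axis) of each of the 10 genes in each library, with control libraries in blue and knockdown libraries in orange. Dux lies under 0.2 RPKM throughout, Ncl lies between 577 and 658 RPKM with overlapping groups, and the other 8 genes lie between 9.50 and 103 RPKM.

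Among the repressors, the CAF-1 subunits did not move by the same amount. Chaf1b (ENSMUSG00000022945, chromosome 16, 93883901 to 93906115 of GRCm38) was at 32.9 and 28.1 RPKM in the controls and at 18.4 and 18.2 RPKM after knockdown. The groups lay apart, with a log2 change of -0.72 (SE 0.0802, 95% interval -0.90 to -0.54, limma adjusted p = 4.03e-05). Chaf1a (ENSMUSG00000002835, chromosome 17, 56040439 to 56072289) was at 62.8 and 61.9 RPKM and then at 56.4 and 56.9 RPKM. Those groups also lay apart, but the log2 change of -0.14 (SE 0.0594, 95% interval -0.27 to -0.0042) was not called (limma adjusted p = 0.064). It was called with equal sums of RPKM (-0.23, adjusted p = 0.00661), under quantile normalization (-0.185, adjusted p = 0.0192) and with no filter on low values (-0.14, adjusted p = 0.0436), over a range of adjusted p from 0.00661 to 0.223. The RPKM of Chaf1a per RPKM of Chaf1b was 1.91 and 2.20 in the controls and 3.07 and 3.12 after knockdown, a mean of 2.06 ± 0.207 against 3.09 ± 0.0362 (SD, n = 2 each), and was not tested. The longest Chaf1a transcript shared 48.9% of its bases with Ubxn6, which stood at 9.62 to 11.2 RPKM in the 4 libraries.

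The promoters of the CAF-1 pair are shown because the subunits work as a complex while only Chaf1b was called lower. That of Chaf1a spans chr17:56040166-56040465 and that of Chaf1b chr16:93883651-93883950, both on the plus strand of GRCm38.p6, with capitals as for Duxf3.
Chaf1a: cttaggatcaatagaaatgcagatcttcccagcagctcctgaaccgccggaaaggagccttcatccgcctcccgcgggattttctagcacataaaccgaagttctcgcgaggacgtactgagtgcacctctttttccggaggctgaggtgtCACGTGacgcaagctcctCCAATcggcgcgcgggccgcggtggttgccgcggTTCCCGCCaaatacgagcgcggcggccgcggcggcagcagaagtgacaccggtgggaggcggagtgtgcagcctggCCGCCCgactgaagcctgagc
Chaf1b: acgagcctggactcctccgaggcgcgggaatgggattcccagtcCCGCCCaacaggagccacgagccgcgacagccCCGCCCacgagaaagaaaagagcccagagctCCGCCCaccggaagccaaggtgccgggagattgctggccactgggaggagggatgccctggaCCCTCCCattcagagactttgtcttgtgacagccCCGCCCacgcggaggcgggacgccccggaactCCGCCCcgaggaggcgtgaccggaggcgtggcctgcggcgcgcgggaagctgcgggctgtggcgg
The Chaf1a window held 1 match to TTCCCGCC, a sequence in 2.19% of all windows, 1 to CACGTG (7.15%), 1 to CCAAT and 1 to GGGCGG (35.7%). The Chaf1b window held 5 matches to GGGCGG and 1 to CCCTCCC, and none of the other letters searched. CCCTCCC is common, in 7211 of all 32851 windows. Among the other genes called lower, the windows of Zmym2 held 2 and 1 matches to it, and those of Kdm1a and Smchd1 none. The windows of Chaf1a and Ncl, which were not called, also held none. Any link between CCCTCCC and the calls was not tested.

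**Figure D3:**
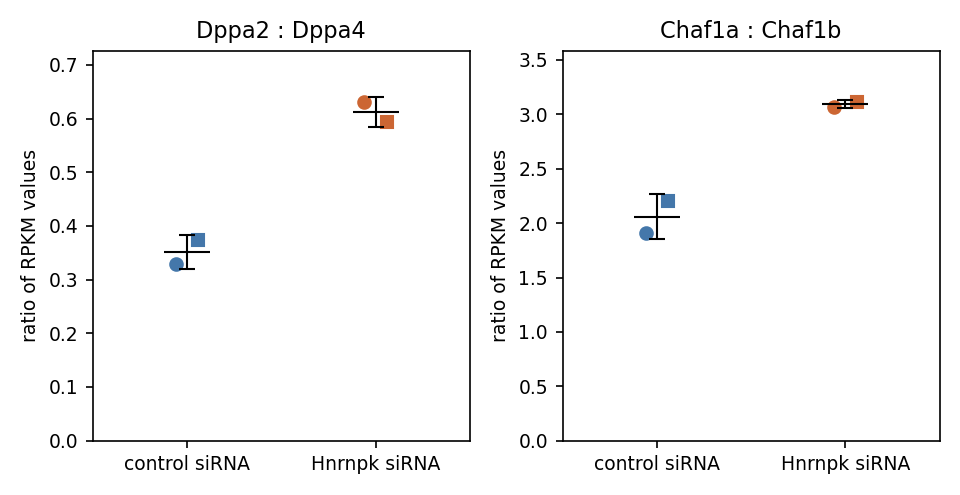
Ratio of RPKM values in each library for Dppa2 to Dppa4 (left) and Chaf1a to Chaf1b (right), with bars at the mean and SD of the 2 libraries per group. Both ratios are higher in both knockdown libraries, at 0.632 and 0.593 for the first and 3.07 and 3.12 for the second.

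LSD1, the product of Kdm1a, removes methyl groups from lysine 4 of histone H3 within the CoREST complex. Kdm1a (ENSMUSG00000036940, chromosome 4, 136550540 to 136602723) was at 79.4 and 75.8 RPKM in the controls and at 59.1 and 61.4 RPKM after knockdown. Its log2 change was -0.36 (SE 0.0624, limma adjusted p = 0.000642), with the groups apart. Zmym2 (ENSMUSG00000021945, chromosome 14, 56886653 to 56962701), a zinc finger protein that binds the complex, was at 33.0 and 32.5 RPKM and then at 23.3 and 21.9 RPKM. It fell by 0.52 on the log2 scale (SE 0.0644, limma adjusted p = 7.36e-05), again with the groups apart.

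Smchd1 (ENSMUSG00000024054, chromosome 17, 71344489 to 71475343, minus strand) had the largest fall of the 10 genes. It was at 21.8 and 20.98 RPKM in the controls and at 10.8 and 9.50 RPKM after knockdown, 0.475 of the control mean. The log2 change was -1.04 (SE 0.0780, 95% interval -1.22 to -0.87, limma adjusted p = 3.47e-06), lower than in all but 4.0% of the genes tested. The neighbour Ndc80, a kinetochore gene 20757 bases away, rose from 26.8 and 30.4 to 44.9 and 46.6 RPKM (log2 change 0.67, limma adjusted p = 3.45e-05). The promoter window of Smchd1 is shown for its GC boxes; it spans chr17:71475294-71475593 of GRCm38.p6 on the minus strand.
Smchd1: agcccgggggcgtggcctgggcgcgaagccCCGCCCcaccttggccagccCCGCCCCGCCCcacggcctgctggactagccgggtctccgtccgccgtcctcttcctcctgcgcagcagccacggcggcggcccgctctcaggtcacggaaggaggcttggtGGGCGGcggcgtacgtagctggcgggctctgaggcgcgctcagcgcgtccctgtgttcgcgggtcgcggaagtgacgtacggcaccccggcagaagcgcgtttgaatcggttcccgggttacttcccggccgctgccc
It held 4 matches to GGGCGG, which are the only capitals, and was 74.0% GC. GC boxes were not particular to Smchd1: 35.7% of all windows hold GGGCGG, and the window of Ncl, which was not called, held 3 matches.

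Rif1 (chromosome 2, 52072832 to 52122383) was at 55.8 and 60.1 RPKM in the controls and at 63.7 and 56.7 RPKM after knockdown. The log2 change was 0.054 (SE 0.0748, 95% interval -0.11 to 0.22, limma adjusted p = 0.54). Ncl (chromosome 1, 86344719 to 86359400) was the most abundant of the 10, at 577 and 629 RPKM and then at 658 and 627 RPKM. Its log2 change was 0.092 (SE 0.0773, 95% interval -0.081 to 0.27, limma adjusted p = 0.312). The groups overlapped for both genes, and the sign of the change depended on the processing. Rif1 was at -0.033 with equal sums of RPKM, at -0.10 with GC trends removed and at -0.030 without Hnrnpk siRNA replicate 1. Ncl was at -0.0094 with GC trends removed and at -0.19 under quantile normalization, where it was called lower (adjusted p = 0.0144, over a range from 0.0144 to 0.964).

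**Figure D4:**
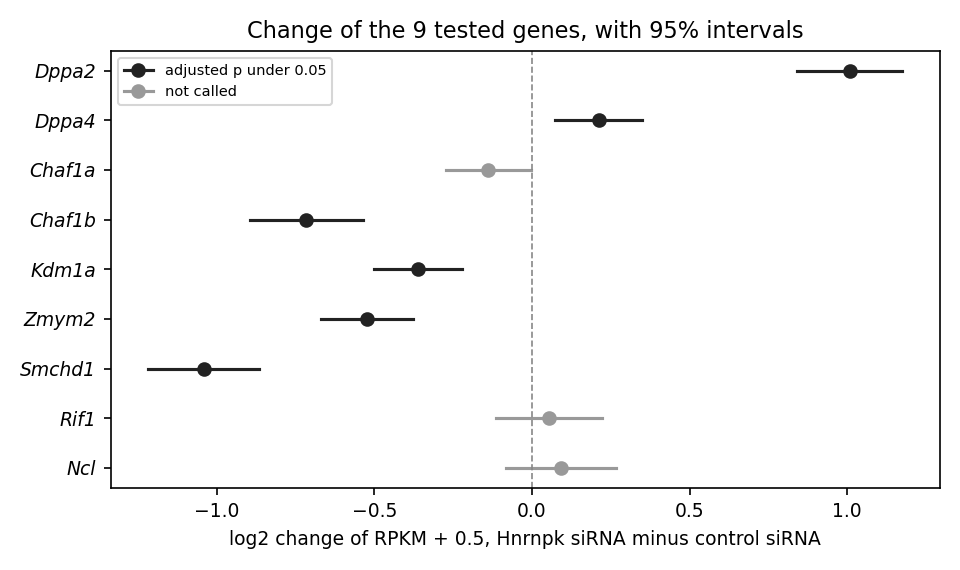
Log2 change of RPKM + 0.5 (Hnrnpk siRNA minus control siRNA) with 95% intervals for the 9 genes tested; black points passed the 0.05 threshold after adjustment and grey points did not. Dppa2 lies at 1.01 and Smchd1 at -1.04, and the intervals of Rif1 and Ncl cross 0.

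RPKM values are per length, so levels were ordered between genes, with limits. The annotation behind the lengths and the handling of reads with several matches are not known. Parts of the Dppa2 (37.0%), Dppa4 (56.9%) and Chaf1a (48.9%) transcripts matched other genes. In the control libraries the order was Ncl, Dppa4, Kdm1a, Chaf1a, Rif1, Zmym2, Dppa2, Chaf1b, Smchd1 and Dux, from the highest mean to the lowest. The library ranges of Zmym2, Dppa2 and Chaf1b, next to each other in that order, overlapped, and all other neighbours lay apart. After Hnrnpk siRNA the order was Ncl, Dppa4, Dppa2, Kdm1a, Rif1, Chaf1a, Zmym2, Chaf1b, Smchd1 and Dux. There the ranges overlapped between Dppa2 and Kdm1a, between Dppa2 and Rif1, between Kdm1a and Rif1, and between Rif1 and Chaf1a. By group mean Dppa2 thus went from rank 7 to rank 3, but single libraries differed from that order. Rif1 (63.7 RPKM) lay above Dppa2 (62.5 RPKM) in Hnrnpk siRNA replicate 1. Kdm1a (61.43 RPKM) lay above Dppa2 (61.36 RPKM) in Hnrnpk siRNA replicate 2. Dppa2 lay below Chaf1b in control replicate 1 (28.6 and 32.9 RPKM) and above Zmym2 in control replicate 2 (32.7 and 32.5 RPKM). The 6 repressors other than Ncl summed to 286 and 279 RPKM in the controls and to 232 and 225 RPKM after knockdown.

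Genes that work with the repressors were described from a list of 28, all tested, of which 12 were called higher and 9 lower, with a median log2 change of 0.094. That share called is near the 67.2% called over all genes tested, 32.2% higher and 35.0% lower, against which the counts of its smaller groups are also to be read. For CAF-1 and histone supply, 4 of 7 were called higher and 1 lower. Rbbp4, the CAF-1 subunit shared with other complexes, was at 67.1 ± 2.86 and 77.0 ± 6.48 RPKM (SD, n = 2 each), a log2 change of 0.20 (limma adjusted p = 0.0385), a call lost under 9 of 17 alternatives, among them leaving out control replicate 1 (0.15) or Hnrnpk siRNA replicate 2 (0.11). Asf1a, which hands histones to CAF-1, rose from 23.2 ± 3.94 to 33.4 ± 1.68 RPKM (log2 change 0.52, limma adjusted p = 0.00134), and Nasp, a histone H3-H4 reservoir chaperone, fell from 121 ± 1.34 to 69.4 ± 2.25 RPKM (SD, n = 2 each), a log2 change of -0.80 (limma adjusted p = 4e-06).

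For the CoREST complex, 6 of 9 were called lower and 1 higher, with a median log2 change of -0.22; over all genes tested 35.0% were called lower and 32.2% higher. Phf21a, the subunit that reads unmethylated lysine 4 of histone H3, fell from 5.09 ± 0.364 to 2.14 ± 0.0906 RPKM (SD, n = 2 each), a log2 change of -1.08 (limma adjusted p = 5.69e-06). The scaffold Rcor1 fell from 14.6 and 13.6 RPKM to 9.97 and 10.03 RPKM, by 0.48 on the log2 scale (limma adjusted p = 0.000244). Hdac2 was the gene called higher (log2 change 0.24, limma adjusted p = 0.00727). Lrif1, a partner of SMCHD1 listed as 4933421E11Rik, rose from 3.46 ± 0.228 to 6.21 ± 0.370 RPKM (SD, n = 2 each), a log2 change of 0.76 (limma adjusted p = 4.19e-05), while Smchd1 fell.

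Of the 4 RIF1 partners 2 were called higher and 1 lower. Of the 7 nucleolar genes 4 were called higher and 1 lower. Npm1, nucleophosmin, went from 1188 ± 56.5 to 1556 ± 3.39 RPKM (SD, n = 2 each), a log2 change of 0.39 (limma adjusted p = 0.0021), a call lost under quantile normalization (0.067, adjusted p = 0.283) and with no filter on low values (0.39, adjusted p = 0.0591). Polr1b, a subunit of RNA polymerase I, fell from 46.1 ± 3.58 to 30.6 ± 0.248 RPKM (SD, n = 2 each), a log2 change of -0.58 (limma adjusted p = 6.52e-05).

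A list of 25 other regulators reported for the two-cell-like state held 4 activators and 21 repressors. Of the activators, 3 were called higher (Tbx3, Trp53 and Nelfa), against 32.2% of all genes tested. Tbx3, a T-box transcription factor, rose from 15.6 ± 1.11 to 62.6 ± 2.06 RPKM (SD, n = 2 each), a log2 change of 1.97 (limma adjusted p = 6.11e-08), and Trp53, which encodes p53, rose from 282 ± 2.97 to 380 ± 6.99 RPKM (log2 change 0.43, limma adjusted p = 0.00029). Nelfa, a subunit of a transcription pausing complex listed as Whsc2, had a log2 change of 0.22 (limma adjusted p = 0.0173). Zscan4c, the remaining activator, passed the filter only through its level after knockdown and is not counted, 8.45 ± 0.754 RPKM against 0.111 ± 0.0264 RPKM (SD, n = 2 each).

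The 21 other repressors went both ways, with 4 called higher, 8 lower and 9 not called, and a median log2 change of -0.099. Over all genes tested 32.2% were called higher and 35.0% lower, so the count of 8 lower is a share near that background. Ehmt2, which encodes the histone methyltransferase G9a, fell from 49.0 ± 0.978 to 31.1 ± 1.10 RPKM, and Dnmt1, the maintenance DNA methyltransferase, from 107 ± 1.55 to 68.2 ± 2.59 RPKM (SD, n = 2 each). On the log2 scale Ehmt2 and Dnmt1 each moved by -0.65 (limma adjusted p = 1.63e-05 and 1.62e-05). E2f6, a repressor that recruits a Polycomb complex to germline genes, rose from 11.8 ± 0.751 to 20.0 ± 0.277 RPKM (SD, n = 2 each), a log2 change of 0.74 (limma adjusted p = 1.62e-05). Myc was called higher (log2 change 0.61, limma adjusted p = 0.0293), but its control libraries stood at 18.3 and 34.3 RPKM, and without control replicate 1 the log2 change was 0.16 (limma adjusted p = 0.0842). Trim28 and Setdb1, which act with zinc finger proteins to silence retroelements, had log2 changes of 0.074 (95% interval -0.11 to 0.26) and -0.12 (95% interval -0.26 to 0.020) and were not called. Setdb1 was called lower with equal sums of RPKM (-0.21, adjusted p = 0.0155) and with GC trends removed (-0.15, adjusted p = 0.0464). Trim28 was at -0.014 with equal sums of RPKM and at -0.041 under quantile normalization, but was called higher with GC trends removed (0.22, adjusted p = 0.0446). The count of 8 lower fell to 4 or 5 when any library was left out.

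**Figure D5:**
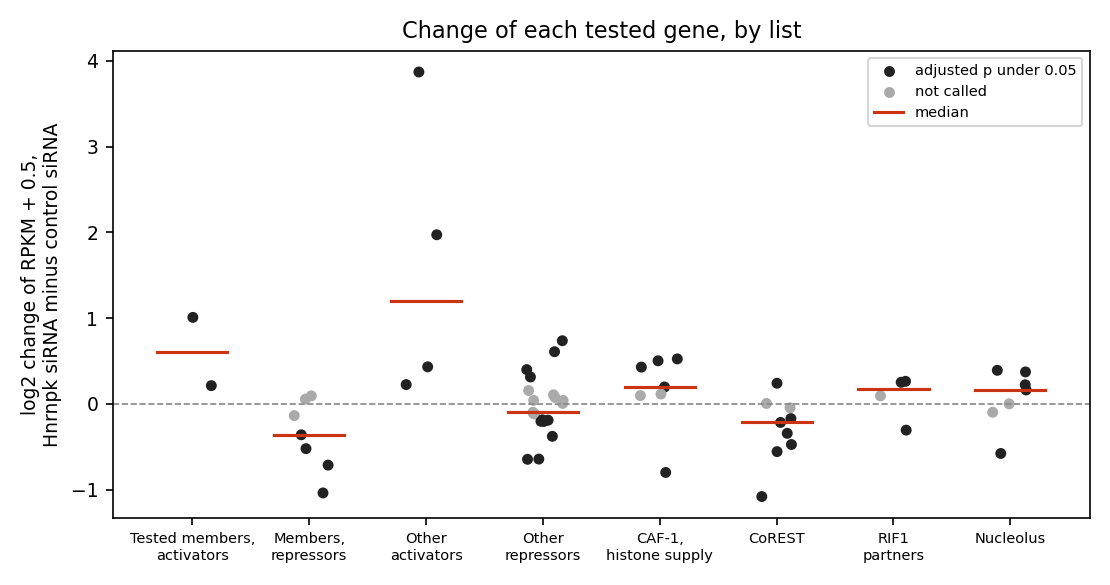
Log2 change of RPKM + 0.5 (Hnrnpk siRNA minus control siRNA) for each tested gene of the lists, in black where called and grey where not, with the median of each list in red. The medians are 0.61 for the 2 tested activators, -0.36 for the 7 repressors, -0.099 for the 21 other repressors and -0.22 for CoREST. Zscan4c is drawn in black among the other activators and enters their median, although it passed the filter only through its level after knockdown and its call is not counted.

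The readout of the state, genes of the early embryo that DUX activates, was described over all 21 listed genes found in the table. In 20 of them both knockdown values exceeded both control values, against 39.0% of all rows above 0. The list was chosen with earlier results of these data known, so that count is a description and not a test. The exception was Duxbl, a homeobox relative of Dux listed with them, at 0.0693 and 0.0792 RPKM in the controls and 0.0300 and 0.0342 RPKM after knockdown, a pattern that 37.5% of rows showed. The 14 that passed the filter did so through their levels after knockdown, so their calls are not counted here. Dub1a, a deubiquitinase gene, went from 0.0409 and 0.0815 RPKM to 5.04 and 5.88 RPKM, and Zscan4d from 0.0680 and 0.1003 RPKM to 4.65 and 5.32 RPKM. Gm8300 reached 7.04 and 8.05 RPKM, Gm5662 12.1 and 15.7 RPKM and Dub3 6.07 and 6.72 RPKM. With Zscan4c, given above, these had the largest log2 changes of RPKM + 0.5 among the targets that passed the filter. That measure compresses the changes of low rows. As a ratio of group means, Tdpoz3 rose 219 times, from a control mean of 0.0037 RPKM, against 27.5 times for Dub3. Tdpoz3 was listed at 0 in control replicate 1 and at 0.00747 RPKM in control replicate 2, so the size of its ratio is poorly determined. Tdpoz1, at 0.120 and 0.132 RPKM after knockdown, and Duxbl were below the row named Dux in the same libraries. Many are near-identical copies, and they are not independent of each other.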

How the data were processed

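Values were RPKM per gene, which the authors deposited as 1 column per library, without pooling replicates. BWA, SAMtools and the build mm9 are named in the submitters' processing notes; no source used here names the counting tool, its annotation or the handling of reads with several matches. Per the labels, the RNA was poly(A) selected in 1 field and rRNA-depleted in another. Of 22138 identifiers, 20551 were found in GENCODE M21 (GRCm38), which gave positions, exonic lengths and GC content; promoters are from RefSeq (GRCm38.p6). Names not in the table were looked up by M21 identifier. RPKM values are not counts and no count model was used.

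Tests were run in limma 3.58.1 under R 4.3.3 (log2(RPKM + 0.5), mean of at least 0.5 RPKM, mean-variance trend, moderated two-sided tests, Benjamini-Hochberg over the 12486 genes tested), and checked on simulated data. That check called 49% of 100 genes with a true log2 change of 0.5 and 93% of 100 with a change of 1. A gene not called may thus still have changed by a small amount. The simulated data held fewer changed genes than were called here, so the shares may differ in the real data. Transcripts were compared with BLAST 2.17.0 (95% identity, at least 100 bases). The members and lists were chosen with earlier results of these data known. Named genes are all members, Hnrnpk, up to 6 called genes with the largest change per list, 6 fixed names and the 3 nearest patterns; Nelfa, Hdac2, the neighbours, the copies, the array rows and Duxbl were named outside that rule after their values were seen. Some genes that the rule names are not reported here. Deviations of same-numbered libraries from their group means correlated at 0.0267 across genes, so the numbers were not taken as pairs. Alternatives were other added values, filters, scalings, GC and length trends, no variance trend, the replicate block and each library left out.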

Additional observations from a re-analysis of the deposited data

How the results depend on the processing

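Across 17 alternatives, Dppa2, Chaf1b, Kdm1a, Zmym2, Smchd1 and Hnrnpk kept their direction and call, with Hnrnpk between -1.83 and -1.70 on the log2 scale. The calls of Dppa4 and Chaf1a did not hold on their side of the threshold, and the sign of Rif1 (-0.033, -0.10 and -0.030), Ncl (-0.19 and -0.0094) and Trim28 (-0.041 and -0.014) turned as given above, with Trim28 called higher once GC trends were removed; with each library left out, Rif1 ran from -0.030 to 0.138. The genes called higher among the 10 numbered 1 in place of 2 under quantile normalization and with equal sums of RPKM, and 1 to 2 with each library left out; those called lower numbered 6 under quantile normalization, 5 with equal sums and with no filter, and 4 otherwise. Partners called higher numbered 7 under quantile normalization against 12, and other regulators called lower numbered 5 against 8 with no filter (also with 0.1 or 0.01 RPKM added) and with no variance trend, and 4 to 5 with each library left out. Without a filter, 1 DUX target gene was called lower against 0; the alternative tests more genes. For the other changes the cause was not tested. With the replicate block, the numbers sharing no stated origin, the log2 change of Dppa4 was 0.21 (limma adjusted p = 0.00504). Equal sums of RPKM moved the median of all genes from -0.015 to -0.095, and no other setting moved it further. Genes called higher ranged from 3155 to 4990 and lower from 3552 to 5156. Depth limits the Dux array, with 7 and 13 units for the row named Dux in the control libraries and other array rows listed at 0 in 1 of them.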
